A study of Rattus norvegicus with 22 samples.

Results

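Kupffer cells are the resident macrophages of the liver. They sit in the sinusoids, take up particles, lipoproteins, spent red cells and bacteria from portal blood, and depend on signalling through the receptor of colony stimulating factor 1. The 9 genes described here are read mostly from such cells in liver tissue: Csf1r encodes that receptor, Clec4f a C-type lectin found on rodent Kupffer cells, Cd68 a glycoprotein of the endosomes and lysosomes of macrophages, Cd163 the scavenger receptor for haemoglobin bound to haptoglobin, Marco a scavenger receptor with a collagenous stalk, Cd5l a secreted protein of tissue macrophages, and C1qa, C1qb and C1qc the chains of C1q, the recognition part of the first complement component. They were chosen by name, and every probe whose gene name is one of these symbols was taken, which gave 11 of 30367 probes on the array. All 9 genes, of 26276 gene names on the array, had a probe, and all passed the filter on dim probes. In RNA from whole liver, fewer cells of a type and less RNA per cell cannot be told apart.

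Livers came from 22 male Sprague-Dawley rats that were 8 weeks old when feeding began. Control rats ate a semi-synthetic diet (CD), and the others ate the same kind of diet with salmon fat in place of lard, linden inflorescence extract, pumpkin puree and probiotics (BASE-diet, BD), for 3 or 14 months. There were 5 rats each in CD 3 and BD 3, and 6 each in CD 14 and BD 14, with 1 array per rat. The time of feeding and the age of the rat cannot be told apart in this design. Each rat's RNA, in Cy5 according to the labels, was hybridised on a 2-colour array together with 1 common Cy3 reference, liver RNA of healthy rats from outside the experiment that were 10 weeks old. Levels below are log2 ratios of a rat to that reference, so that -1 is a level at 1 in 2 of the reference and 0 is a level equal to it. No array had the dyes swapped, so a difference from the reference cannot be told apart from a difference between the dyes, while differences between groups are free of a dye effect that all arrays share.

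The arrays were not of equal quality, and they were not spread evenly over the slides. Between 52.4% and 93.6% of spots were well above background in CD 3, where the array with the least was replicate 4, against 67.3% to 92.4% over the other groups. By the file headers the arrays lay on 5 slides (A to E), and no pair of slides shared a scan day. Of the CD 3 arrays, 3 were alone on slide D, 1 was on slide B with 2 of BD 3, and 1 on slide E with 1 of CD 14. The remaining 3 BD 3 arrays shared slide A with 3 of CD 14, and slide C carried BD 14 in full together with 2 of CD 14. CD 3 replicate 1 and CD 14 replicate 1 had 4.44% and 4.05% of spots marked as non-uniform, against at most 0.063% on any other array. All members but Marco were well above background on every array. Marco was so on 19 of 22 arrays, and in CD 3 on only 2 of 5.

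In each of the 9 genes, read by its brightest probe, the CD 3 rats had the lowest group mean. A dimmer probe of Csf1r had BD 3 lowest (-0.49, against -0.26 in CD 3). In 8 the order was CD 3, BD 3, BD 14 and CD 14, and Csf1r differed only in that BD 14 lay above CD 14. The steps between neighbouring groups were small beside the spread among rats: of all neighbouring pairs, only CD 3 and BD 3 in C1qc were further apart (1.03 on the log2 scale) than the larger SD of the pair (0.87). Of 197 values, 185 lay below the reference. None of the 9 genes differed between groups at an adjusted p under 0.05 with limma and Benjamini-Hochberg adjustment over all probes.

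**Figure D1:**
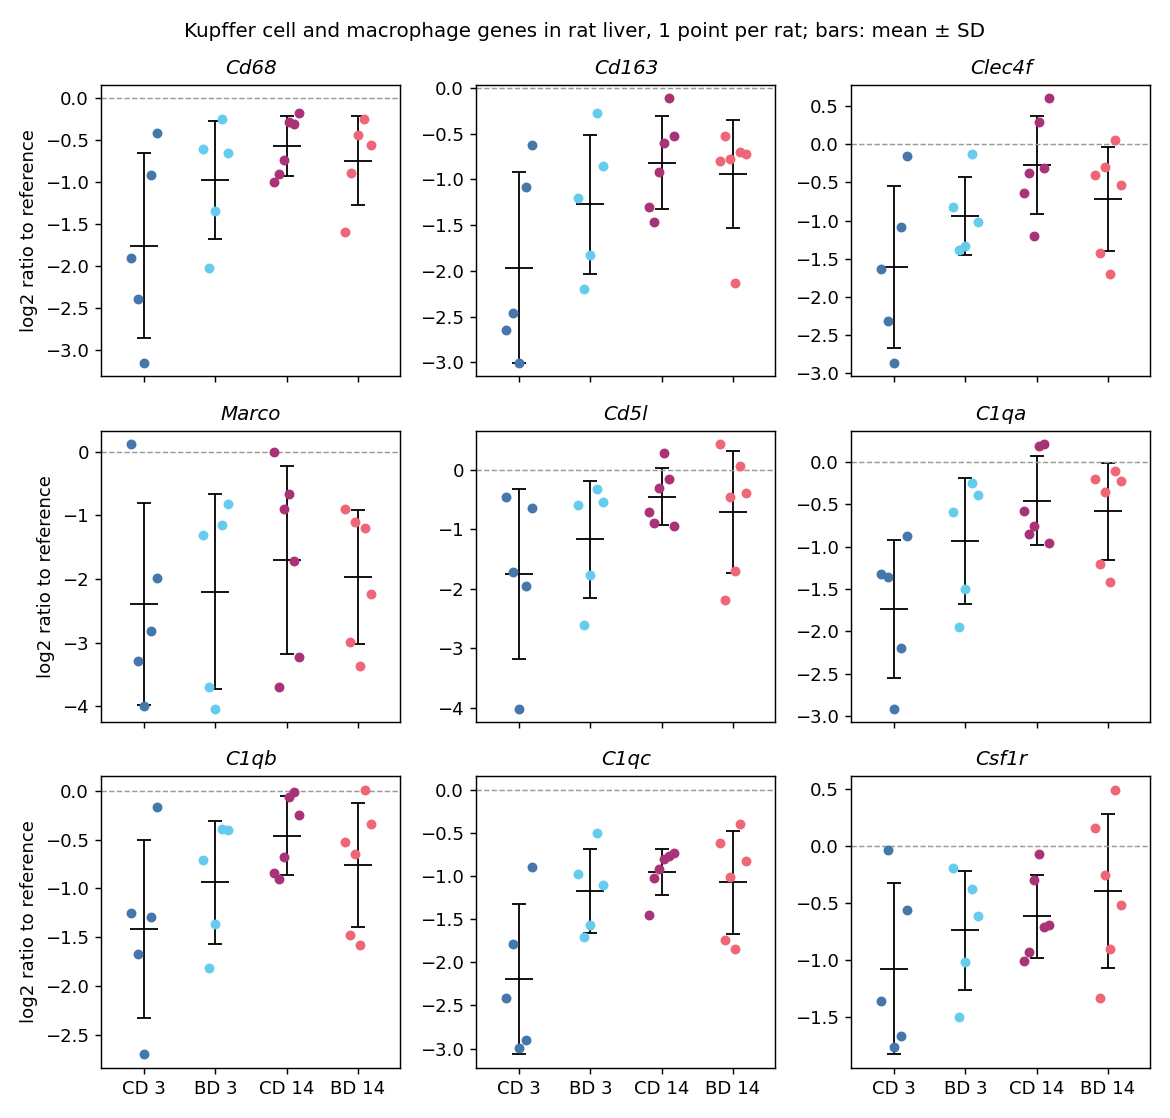
Log2 ratio to the common reference (vertical axis) of the 9 genes in CD 3, BD 3, CD 14 and BD 14, with 1 point per rat and bars for the mean and SD. Each gene is read by its brightest probe, and CD 3 has the lowest mean in all 9 panels and in most of them the widest spread, and the dashed line marks the level of the reference.

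The receptor Csf1r is the entry point of the pathway that keeps Kupffer cells alive. It was read by 2 probes on chromosome 18 of the rat build rn4, at chr18:57105231-57105932, where the 60 bases are split over 702 genomic bases, and at chr18:57093036-57093095, both on the forward strand. Their sequences are shown because the readings differ:
Csf1r, brighter probe: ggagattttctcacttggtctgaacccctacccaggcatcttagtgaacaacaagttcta
Csf1r, dimmer probe: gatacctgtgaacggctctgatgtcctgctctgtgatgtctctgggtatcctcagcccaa

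With the brighter probe, the CD 3 rats had Csf1r log2 ratios of -1.36, -0.04, -1.76, -1.67 and -0.56. The BD 3 rats had -0.20, -1.50, -1.02, -0.38 and -0.61. CD 14 ranged from -1.01 to -0.07 with a median of -0.70, and BD 14 from -1.33 to 0.49 with a median of -0.39. The groups overlapped throughout, and 3 of 5 CD 3 rats lay below the lowest CD 14 rat. CD 14 exceeded CD 3 by 0.46 (SE 0.35, 95% interval -0.26 to 1.18, limma adjusted p = 0.706). The difference was 0.29 without CD 3 replicate 3, 0.72 without CD 3 replicate 2 and 1.09 in the Cy5 channel alone. With the dimmer probe it was -0.01, and that of BD 3 from CD 3 was -0.23 in place of 0.34, so that no direction can be given for Csf1r.

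Clec4f, whose lectin is restricted to Kupffer cells in rodents, was read by 10 spots of a probe at chr4:117839920-117839979 (rn4, reverse strand). The CD 3 rats had Clec4f log2 ratios of -1.63, -2.32, -2.87, -1.09 and -0.15, and the BD 3 rats -0.82, -1.39, -1.33, -0.12 and -1.02. CD 14 ranged from -1.20 to 0.60 with a median of -0.34, and BD 14 from -1.69 to 0.05 with a median of -0.47. Of the CD 3 rats 3 were below all CD 14 rats, and the other two lay among them. Its mean was -1.61 ± 1.06 in CD 3 and -0.27 ± 0.64 in CD 14 (SD, n = 5 and 6), the largest difference of the 9 genes between those groups, at 1.34 (SE 0.43, limma adjusted p = 0.281). That rank did not hold throughout. Without CD 3 replicate 3, C1qc (1.05) exceeded Clec4f (1.02), and in the Cy5 channel alone Marco (1.58) exceeded Clec4f (1.53).

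Of the 3 genes for endocytic and lysosomal proteins, Cd68 had its probe at chr10:56481726-56481785 (rn4, reverse strand). The CD 3 rats had Cd68 log2 ratios of -1.90, -2.39, -3.15, -0.91 and -0.42, and the BD 3 rats -0.61, -2.02, -1.34, -0.25 and -0.66. CD 14 ranged from -0.99 to -0.18 with a median of -0.52, and BD 14, where replicate 1 had no value because its spots were non-uniform, from -1.59 to -0.24 with a median of -0.56. In all, 3 CD 3 rats and 2 BD 3 rats lay below every CD 14 rat. CD 14 exceeded CD 3 by 1.19 (SE 0.41, limma adjusted p = 0.315).

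Cd163, read at chr4:160423704-160423763 (rn4, forward strand), had log2 ratios of -2.65, -2.46, -3.01, -1.09 and -0.63 in CD 3 and of -1.21, -2.20, -1.83, -0.28 and -0.86 in BD 3. CD 14 ranged from -1.46 to -0.11 with a median of -0.76. In BD 14, 5 rats lay close together between -0.80 and -0.52, and replicate 4 stood apart at -2.13. CD 14 exceeded CD 3 by 1.14 (SE 0.42, limma adjusted p = 0.353).

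Marco was the dimmest of the 9 and the most variable. Its probe maps to chrUn:9449917-9450079 (rn4, forward strand), a sequence that the build does not place on a chromosome, and is split over 163 bases. The probe reads the collagenous stalk, and the capitals mark its 7 glycine codons, with a pair of other codons between each and the next:
Marco probe: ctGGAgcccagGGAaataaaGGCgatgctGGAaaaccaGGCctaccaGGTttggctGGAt

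The CD 3 rats had Marco log2 ratios of 0.12, -3.28, -4.00, -2.81 and -1.99, and the BD 3 rats -1.31, -3.69, -4.04, -1.15 and -0.83. CD 14 ranged from -3.69 to -0.00 with a median of -1.31, and BD 14 from -3.37 to -0.90 with a median of -1.71. All groups overlapped, and BD 14 spanned the narrowest range. The highest ratios of CD 3 and CD 14 came from the 2 arrays with many non-uniform spots, and the processed Cy5 signal in CD 3 was 427 on replicate 1 and between 5.50 and 42 on the others. CD 14 exceeded CD 3 by 0.69 with an SE of 0.79, and without both arrays by 0.98. Leaving out 1 array gave 0.29 (CD 3 replicate 3), 0.35 (CD 14 replicate 1), 1.09 (CD 14 replicate 2) or 1.32 (CD 3 replicate 1), and the Cy5 channel alone 1.58.

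Cd5l, a circulating protein that macrophages make under control of liver X receptors, was read by 10 spots of a probe at chr2:179394215-179394274 (rn4, forward strand). The CD 3 rats had Cd5l log2 ratios of -0.45, -1.71, -4.02, -1.95 and -0.63, and the BD 3 rats -0.59, -2.61, -1.77, -0.33 and -0.54. CD 14 ranged from -0.95 to 0.29 with a median of -0.51, and BD 14 from -2.19 to 0.44 with a median of -0.41. Replicate 3 of CD 3 was the lowest of all 22 rats by over 1 log2 unit, and the CD 14 rats lay closest together. CD 14 exceeded CD 3 by 1.30 (SE 0.57, limma adjusted p = 0.450), and a second probe at chr2:179392373-179392432 gave 1.19. Without CD 3 replicate 3 the difference was 0.73.

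The 3 chains of C1q are made in the liver chiefly by macrophages, unlike most complement components, which come from hepatocytes. Their probes lie within 15108 bases of each other on the reverse strand of chromosome 5 of rn4: C1qb at chr5:155647530-155647589, C1qc at chr5:155656638-155656697 and C1qa at chr5:155662578-155662637. Both of the following are shown since these chains had the lowest p-values among the 9 genes:
C1qa probe: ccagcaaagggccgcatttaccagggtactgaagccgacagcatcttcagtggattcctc
C1qc probe: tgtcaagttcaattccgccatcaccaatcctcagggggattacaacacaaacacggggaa

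C1qa had log2 ratios of -1.32, -1.36, -2.92, -2.20 and -0.88 in CD 3 and of -0.59, -1.95, -1.50, -0.25 and -0.39 in BD 3. It ranged from -0.96 to 0.21 in CD 14, with a median of -0.67, and from -1.42 to -0.11 in BD 14, with a median of -0.29. Of the CD 3 rats 4 were below all CD 14 rats, and the difference was 1.28 (SE 0.38, limma adjusted p = 0.251). C1qb had log2 ratios of -1.25, -1.68, -2.70, -1.29 and -0.16 in CD 3 and of -0.71, -1.82, -1.36, -0.39 and -0.40 in BD 3. It ranged from -0.91 to -0.01 in CD 14, with a median of -0.46, and from -1.58 to 0.02 in BD 14, with a median of -0.59. Again 4 CD 3 rats were below all CD 14 rats, replicate 5 lay among them, and the difference was 0.96 (SE 0.38, limma adjusted p = 0.390), or 0.64 without CD 3 replicate 3.

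C1qc had log2 ratios of -2.41, -1.78, -2.99, -2.91 and -0.90 in CD 3 and of -0.98, -1.70, -1.57, -0.50 and -1.11 in BD 3. It ranged from -1.45 to -0.73 in CD 14, with a median of -0.86, and from -1.84 to -0.40 in BD 14, with a median of -0.92. The CD 14 rats lay closest together (mean -0.95 ± 0.27, n = 6), and 4 of 5 CD 3 rats were below all of them (mean -2.20 ± 0.87, n = 5). The difference was 1.25 (SE 0.34, 95% interval 0.54 to 1.95, unadjusted p = 0.00142, limma adjusted p = 0.201), the lowest p of the 9 genes. C1qc also had the lowest p among the 4 groups (moderated F test, unadjusted p = 0.00623, limma adjusted p = 0.268).

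**Figure D2:**
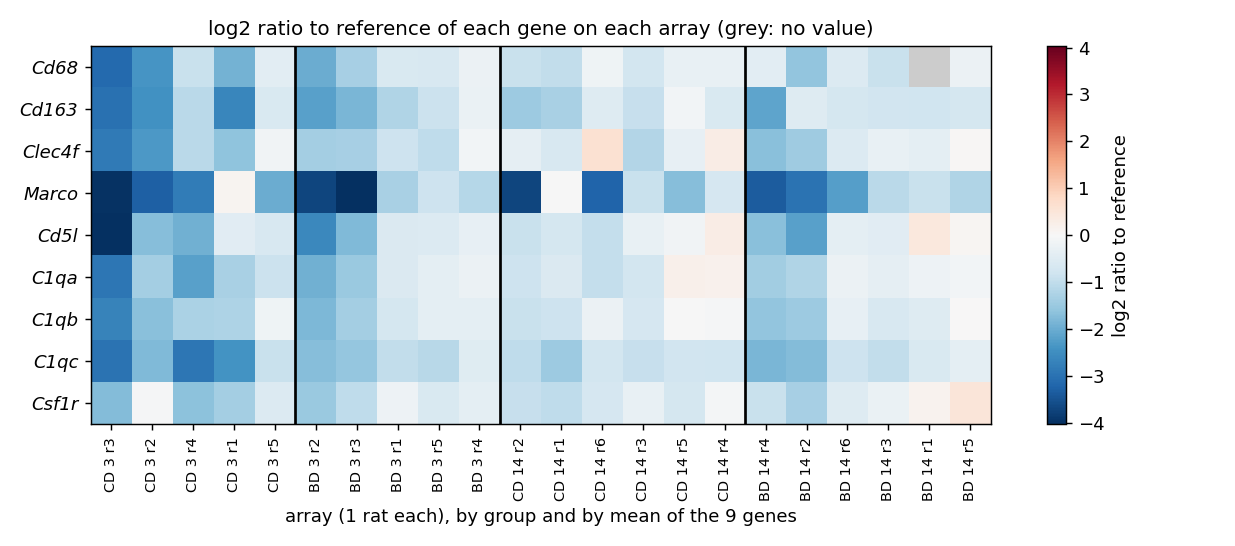
Log2 ratio to the reference of each of the 9 genes (rows) on each of the 22 arrays (columns, 1 rat each), sorted within a group by the mean of the 9 genes. Many columns, though not all, are coloured alike from top to bottom: replicate 3 of CD 3 is low in all 9 genes and replicate 5 of CD 3 is close to the CD 14 rats. Replicate 1 of CD 3 is mixed, and Marco is the row that departs most.

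The comparison of control rats at the later and the earlier time asked what 14 months did on the control diet against 3. All 9 genes had higher means in CD 14, by 0.46 to 1.34 with a median of 1.19 on the log2 scale, while the median over all 19434 probes tested was 0.03. Of these, Marco was well above background on only 2 of 5 CD 3 arrays, so its CD 3 mean is in part that of signals near background, and Csf1r had no direction that both probes shared. The other 7 genes differed by 0.96 to 1.34. No member reached an adjusted p under 0.05, and no probe of the array did (0.0% of probes, with limma and Benjamini-Hochberg adjustment). At an unadjusted p under 0.05, 7 of 9 members were higher in CD 14 (all but Marco and Csf1r) and none lower, where 6.85% of all probes were higher and 3.29% lower. The methods' test (one-way, over the 4 groups, then pairwise) gave 3 of 9 at an unadjusted p under 0.05, Clec4f, C1qa and C1qc, and no member after adjustment. The 6.85% and 3.29% belong to limma, and the share of all probes by the methods' test is not given here.

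Single arrays of CD 3 moved this comparison. Without CD 3 replicate 5, whose 9 genes had a mean of -0.70 against -1.43 to -3.05 on the other CD 3 arrays, 2 members were called, Clec4f (1.70, limma adjusted p = 0.0427) and C1qc (1.57, limma adjusted p = 0.0172), along with 205 of all probes. Among the 4 groups 1 member, C1qc, was then called. Apart from those 205, counts over all probes with an array left out are not given here. Without CD 3 replicate 3, whose mean was -3.05, 4 members (Cd68, Clec4f, C1qa and C1qc) in place of 7 had an unadjusted p under 0.05, and the median difference was 0.84. Group and slide were also tied. With slide as a block the median difference was 0.14 and no member had an unadjusted p under 0.05, and Marco, Cd5l, C1qa and C1qb had differences below 0. On slide E, the only one with both groups, the CD 14 array was higher than the CD 3 array in 4 of 9 genes, with a median difference of -0.08 and no test for 1 array against 1. How far slide takes part in the difference was not tested beyond these values.

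**Figure D3:**
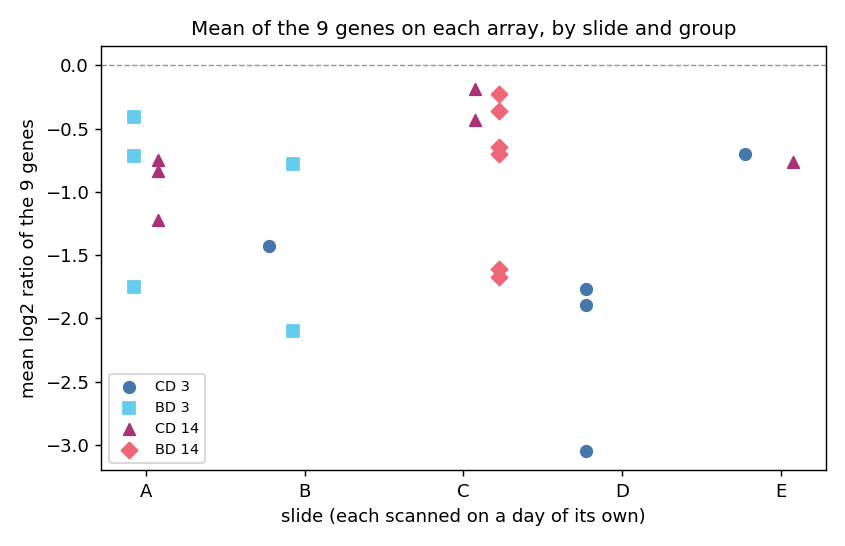
Mean log2 ratio of the 9 genes on each array (vertical axis) by slide, with 1 symbol per rat and a symbol for each group. The 3 CD 3 arrays of slide D lie between -3.05 and -1.77, and the CD 3 and CD 14 arrays that share slide E lie at -0.70 and -0.77.

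On BASE-diet the same comparison of times gave smaller values. All 9 genes had higher means in BD 14 than in BD 3, by 0.10 to 0.47 with a median of 0.24 against 0.07 over all probes, and none had an unadjusted p under 0.05 (lowest 0.326), as 7.44% of all probes had. The median became 0.10 without BD 3 replicate 2, when 5 of 9 genes were higher, and 0.10 without BD 14 replicate 5 and 0.14 without BD 3 replicate 3. It became 0.38 to 0.45 without BD 3 replicate 4 or 5 or BD 14 replicate 2 or 4. In the Cy5 channel alone it was 0.055, with 5 of 9 genes higher. No slide held both groups, and with slide as a block the median was -0.59. Averaged over both diets, the later time was higher by 0.40 to 0.88, with a median of 0.71 against 0.06 over all probes. Of the 9, 7 had an unadjusted p under 0.05 and were higher, where 9.16% of all probes were higher and 4.46% lower, and none passed adjustment with limma (lowest adjusted p 0.212), as 0.221% of all probes did. The 7 became 3 (Clec4f, C1qa and C1qc) without CD 3 replicate 3 or without BD 3 replicate 2, and 0 with slide as a block, when the median was -0.27.

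The comparisons of diets asked what BASE-diet did at each time. At 3 months all 9 genes had higher means in BD 3 than in CD 3, by 0.19 (Marco) to 1.03 (C1qc), with a median of 0.67 against 0.03 over all probes. As above, Marco was near background on most CD 3 arrays, and the dimmer probe of Csf1r gave -0.23, so that the direction of these 2 genes is uncertain. C1qc alone had an unadjusted p under 0.05 (SE 0.36, unadjusted p = 0.00878, limma adjusted p = 0.518), where 4.99% of all probes were higher at that threshold. On slide B, the mean of 2 BD 3 arrays was above the 1 CD 3 array in 6 of 9 genes, with differences from -2.62 (Marco) and -1.15 (Cd5l) to 1.07 (C1qc). Both BD 3 arrays were above it in Cd163, Clec4f and C1qc. The median of 0.67 became 0.36 without CD 3 replicate 3, 1.01 without CD 3 replicate 5, 0.44 without BD 3 replicate 4 and 0.31 with slide as a block. Without CD 3 replicate 3, Cd5l went from 0.58 to 0.016. Marco differed by -0.03 to -0.21 when CD 3 replicate 2 or 3 or BD 3 replicate 1, 4 or 5 was left out, so that its direction rests on single arrays.

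At 14 months 8 of 9 genes had lower means in BD 14 than in CD 14, all but Csf1r, with differences of -0.45 (Clec4f) to 0.22 and a median of -0.18. None had an unadjusted p under 0.05 (4.6% of all probes had), and the median became 0.015 without BD 14 replicate 4, -0.0041 without BD 14 replicate 2, -0.093 without CD 14 replicate 4 and -0.30 without BD 14 replicate 5. It was -0.016 with arrays weighted by quality, when 4 of 9 genes were higher, -0.082 with normexp and loess, and -0.35 in the Cy5 channel alone. On slide C, which held all BD 14 arrays and 2 of CD 14, all 9 genes were lower in BD 14, with a median of -0.70. Averaged over both times, diet differences were -0.04 to 0.45 with a median of 0.28 (0.13 without CD 3 replicate 3, 0.16 without BD 3 replicate 4 or with normexp and loess, -0.063 with slide as a block), with no member at an unadjusted p under 0.05 against 7.19% of all probes, and none with an adjusted p under 0.05 against 0.00515%. Whether the diet difference itself differed between times was tested as an interaction. Its estimates by the brightest probes were negative for the 9 genes, from -1.15 to -0.11 (Csf1r) with a median of -0.83 (-0.55 without CD 3 replicate 3). The dimmer probe of Csf1r gave 0.31, 2 genes were above 0 with normexp and loess or with slide as a block, and 1 was so when some single arrays were left out. At an unadjusted p under 0.05 there was 1 gene: C1qc (-1.15, SE 0.48, unadjusted p = 0.0265, limma adjusted p = 0.998), where 2.32% of all probes were negative at that threshold. Among the 4 groups together, 4 of 9 members (C1qc, C1qa, Clec4f and Cd68) had an unadjusted p under 0.05 against 10.5% of all probes, and none had an adjusted p under 0.05 against 0.0257%. These comparisons share groups, so that the low CD 3 arrays enter the time comparison on the control diet, the diet comparison at 3 months and the interaction alike.

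**Figure D4:**
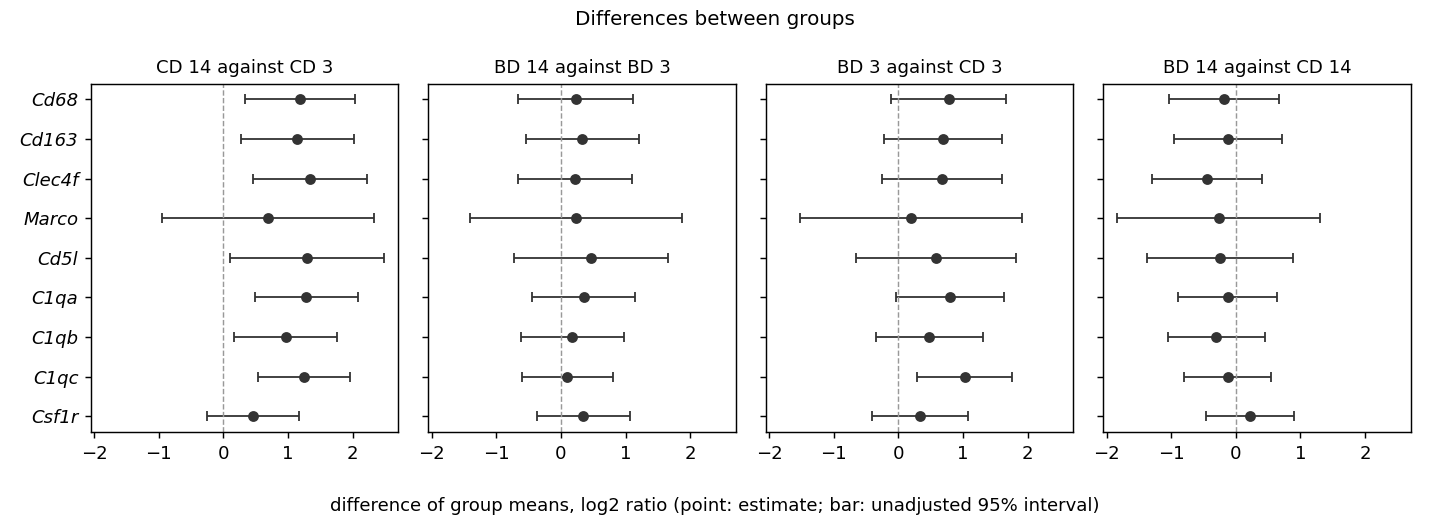
Differences of group means in log2 ratio (horizontal axis) for the 9 genes in 4 comparisons, with points for estimates and bars for unadjusted 95% intervals of the limma fit. Only in CD 14 against CD 3 do most intervals (7 of 9) lie to the right of 0, and in BD 3 against CD 3 that of C1qc does.

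Rats of 1 group differed from each other in most of the 9 genes at once. The mean of the 9 genes on each array ran from -3.05 to -0.70 in CD 3 and from -1.23 to -0.19 in CD 14, and on BASE-diet from -2.10 to -0.41 at 3 months and from -1.68 to -0.22 at 14 months. On 10 of 22 arrays all members with a value lay on the same side of their group means, and on 15 at least 8 did. Over the 36 pairs of genes, Pearson's r of the deviations from group means was 0.35 to 0.91 with a median of 0.71, and Spearman's rho was 0.27 to 0.90 with a median of 0.66. After Benjamini-Hochberg adjustment over the 36 pairs, the permutation p was under 0.05 in 28 pairs for r and in 25 for rho. Without the 2 arrays farthest from the median of the first gene of a pair, r was 0.19 to 0.90 with a median of 0.60. Within slide A it had a median of 0.77 over 6 arrays and was above 0 in 36 pairs, and within slide C a median of 0.82 with 35 pairs above 0. Each pair is read on the same arrays, so an array's own quality and normalisation enter both values. How far they do was not tested. For comparison, r of a member with 16497 other genes had medians of -0.09 to 0.006 and 95th percentiles of 0.41 to 0.55. Normalisation centres each array, so medians near 0 do not measure the part of array quality.

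Cd5l and C1qa, both secreted products, were the pair most alike (r = 0.91, rho = 0.90). C1qa and C1qb, whose probes lie on either side of that of C1qc on chromosome 5, had r = 0.88. C1qb and C1qc had 0.84, C1qa and C1qc 0.81, and C1qb and Clec4f 0.86. Over all slides Marco stood furthest from the rest, with a median r of 0.41, and was closest to Cd5l (0.77). Within slide C the r of Marco was 0.36 (Cd68) to 0.93 (Clec4f), and the only pair below 0 there was Cd68 and Cd163 (-0.24). Cd163 and Csf1r, with r = 0.35, were among the least alike.

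**Figure D5:**
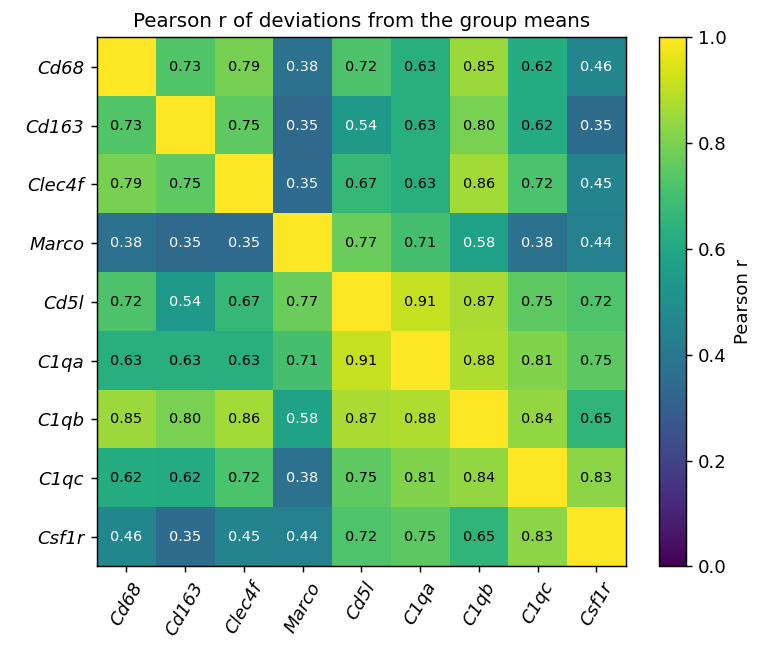
Pearson r between each pair of the 9 genes over the 22 arrays (21 for pairs with Cd68), after the 4 group means were taken out, on a colour scale from 0 to 1. C1qb has values of 0.84 to 0.88 with 5 of the other genes, and the row of Marco is the darkest.

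The genes outside the 9 whose deviations from group means were most like those of a member, by Pearson's r over 22 arrays (21 for Cd68), differed from member to member. For C1qb these were Tyrobp (r = 0.97), an adaptor of activating receptors, Laptm5 (0.95), a lysosomal membrane protein of leukocytes, and Ctss (0.94), the lysosomal protease cathepsin S. For Cd68 they were Lcp1 (0.94), an actin-bundling protein of leukocytes, Snx20 (0.93) and Tspan13 (0.93). C1qa had Slc11a1 (0.92), a metal transporter of macrophage phagosomes, and Fgd2 (0.91) after a probe with no gene name (0.93). Cd5l also had Slc11a1 (0.91), with Aif1 (0.90), an actin-binding protein of macrophages, after another probe with no gene name (0.93). C1qc had Ms4a6a (0.91), Krtap16-5 (0.90) and Vsig4 (0.90), the complement receptor of Kupffer cells. Clec4f had Ms4a6bl1 (0.90), Nkg7 (0.89) and Kcnk6 (0.89), Cd163 had Kcnk13 (0.92), Afap1l1 (0.88) and Vsir (0.87), and Csf1r had Vim (0.87) and Pld4 (0.87) after the same unnamed probe as Cd5l (0.90). Marco had Plscr1 (0.85), Col22a1 (0.85) and Pkm (0.84). Only Slc11a1 and the unnamed probe of Cd5l and Csf1r came up for more than a single member.

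Other genes of these cells were taken from lists. Of 20 further Kupffer cell genes, 15 were tested, and at the later time averaged over diets 6 were higher and none lower at an unadjusted p under 0.05, where 9.16% of all probes were higher and 4.46% lower, with a median difference of 0.67 against 0.06 over all probes. They included Vsig4 (1.35, SE 0.40, limma adjusted p = 0.157) and Spic (1.18, SE 0.33, limma adjusted p = 0.141), a transcription factor of macrophages that recycle iron from red cells. Timd4 and Stab1 had no probe under that name. Of 24 general macrophage receptors and lysosomal genes, all tested, 12 were higher and none lower, beside the same 9.16% and 4.46% of all probes, with a median of 0.68. The lowest p among them was that of Cd36, a scavenger receptor that hepatocytes and endothelium also make, with means of 0.46 ± 1.73 and 0.70 ± 1.38 in the CD 3 and BD 3 rats and of 2.78 ± 0.77 and 2.40 ± 0.49 in CD 14 and BD 14 (SD, n = 5 and 6 per group). Its difference was 2.01 (SE 0.46, limma adjusted p = 0.0689), and Cd14, the co-receptor for lipopolysaccharide, differed by 0.87 (limma adjusted p = 0.142). No gene of any list passed adjustment.

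Around the receptor Csf1r, 13 of 16 listed ligands, macrophage transcription factors and adaptors were tested, and 3 were higher and none lower at the later time (9.16% and 4.46% of all probes), with a median of 0.26. The 3 were Fcer1g (0.71, limma adjusted p = 0.270) and Tyrobp (0.79, limma adjusted p = 0.304), both immunoreceptor adaptors, and the ligand Csf1 (0.59, limma adjusted p = 0.354), all averaged over diets. The other ligand of the receptor, Il34, differed by 0.32 (limma adjusted p = 0.583), and both ligands are named here after their values were seen.

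The partners of C1q in the classical pathway, which come mainly from hepatocytes, and its receptors made a list of 12 names, all tested, although C4a and C4b are read by 1 probe. Among the 12 was also Cd46, which is neither a partner nor a receptor of C1q. At the later time 3 were higher and none lower (9.16% and 4.46% of all probes), with a median of 0.35, led by Cd46 (1.02, limma adjusted p = 0.150), a regulator of complement on cell surfaces, and Cd93 (0.74, limma adjusted p = 0.303). C1r and C1s, the proteases that C1q carries, differed between CD 14 and CD 3 by 0.62 and 0.78 with unadjusted p-values of 0.0664 and 0.141 in limma, and are named here after their values were seen. The genes of C1q differed by 0.96 to 1.28 in that comparison.

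Markers of other liver cells were read beside these, where 6.85% of all probes were higher in CD 14 than in CD 3 at an unadjusted p under 0.05. In CD 14 against CD 3, sinusoidal endothelial markers had 2 of 7 tested genes higher at an unadjusted p under 0.05 (Lyve1 by 1.53 and Oit3 by 1.11) with a median of 0.48, T and natural killer cell markers had 1 of 7 (Nkg7) with a median of 0.58, and hepatocyte and stellate cell markers had 1 of 10 each, with medians of 0.26 and 0.29. None of 11 monocyte and neutrophil genes tested was at that threshold, although their median was 0.88, and S100a8, a calcium-binding protein abundant in neutrophils, was higher by 1.63 at the later time averaged over diets (SE 0.69, limma adjusted p = 0.309). No red cell or bile duct marker was past it either in that comparison, where their medians were 0.35 and 0.51, and the 3 B and plasma cell genes tested had a median of -0.08. By diet, 3 of 7 red cell genes were lower on BASE-diet at an unadjusted p under 0.05, a threshold that 7.19% of all probes passed in either direction, Hbb at -0.87 (limma adjusted p = 0.594) and Hbb-b1 at -0.97 among them.

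The summed processed Cy5 signal of the 9 genes was 9026 to 24111 in CD 3 and 15945 to 81534 in CD 14, and on BASE-diet 11878 to 22793 at 3 months and 12650 to 36193 at 14 months. That of the endothelial markers was 4186 to 11959, 5861 to 15293, 4544 to 7545 and 4090 to 10166 in the same order, and that of the monocyte and neutrophil genes 1712 to 8611, 3819 to 12603, 2511 to 5263 and 1710 to 8803. All of these ranges overlapped between groups. For the 9 genes, CD 3 overlapped the other groups only through replicate 5, which gave 24111, and the 81534 came from CD 14 replicate 6 alone. The sums are not scaled between arrays, whose median processed Cy5 signal ran from 44 (CD 3 replicate 4) to 165 (CD 14 replicate 1). The brightest genes weigh most in them, so they are not amounts of RNA of a cell type. No listed marker with a probe was below background on all 22 arrays, but several were near it: of the monocyte and neutrophil genes, Elane and Mmp8 were well above background on 1 array each, Itgax and Cd9 on 2, Mmp9 on 5, Cxcr2 on 6 and Ccr2 on 7. Of the T cell genes, Cd2 was so on 1, Cd5 on 5 and Cd3e on 9. Alb and Ttr, made by hepatocytes, were well above it on all 22. The part of other cells in the values of the 9 genes was not tested.

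Promoter sequence was given by RefSeq on build GRCr8 for 8 of the 9 genes, all but C1qc, and 250 bases before the start were searched on both strands for 3 motifs of macrophage factors. The ETS core AGGAAG, of the kind bound by PU.1, was in 5 of 8, against 29.5% of 33469 rat promoters. The MAF half-site TGCTGAC was in 1 of 8, against 3.53%, and an interferon-type element, a pair of GAAA set 2 bases apart, in none, against 3.41%. The motifs share no bases with each other in the windows that held them, and a match is a description of letters. The windows of C1qa and C1qb are shown because these genes, close together on chromosome 5, moved together among rats. Capitals mark the MAF half-site, 36 to 30 bases before the start of C1qa (chr5:154419934-154420183, GRCr8, reverse strand), and the ETS core, on the opposite strand 60 to 55 bases before the start of C1qb (chr5:154407828-154408077, GRCr8, reverse strand):
C1qa promoter: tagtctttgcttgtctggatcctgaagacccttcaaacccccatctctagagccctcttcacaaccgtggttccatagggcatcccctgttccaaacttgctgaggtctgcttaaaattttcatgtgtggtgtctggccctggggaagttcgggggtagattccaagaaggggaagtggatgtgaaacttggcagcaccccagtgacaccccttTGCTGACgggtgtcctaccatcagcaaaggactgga
C1qb promoter: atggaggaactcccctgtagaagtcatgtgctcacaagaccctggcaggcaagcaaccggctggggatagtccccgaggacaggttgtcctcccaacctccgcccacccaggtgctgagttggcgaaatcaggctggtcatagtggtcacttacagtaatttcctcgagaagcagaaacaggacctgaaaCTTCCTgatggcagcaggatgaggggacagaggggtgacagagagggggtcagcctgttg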

How the data were processed

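Agilent Feature Extraction output for 22 arrays was used. The deposited intensity values are that software's processed signals, corrected for background and Lowess-normalized between dyes on each array by the authors. The deposited log10 values, per the file headers, give the processed Cy5 over Cy3 signal, with probes annotated to rn4. The authors also deposited log2 values for the 3017 entries selected by their own test among the groups, C1qa being the only one of the 9 genes in it. All of its per-sample columns were looked at, but 1 of the 22 matched no array and those of CD 3 were in another order, so it served only as an alternative. The labels put the rats in Cy5 on every array and the methods text describes the dyes differently; the labels were followed. The software version is 10.10.1.1 in the headers and 10.7.3.1 in the labels.

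Log10 ratios were converted to log2 and averaged over the spots of a probe, omitting control spots and spots marked as non-uniform. Probes entered the test if some group had, on all its arrays, a share of 0.5 or more of their spots well above background in Cy5 (19434 probes, 698 lacking some array, median residual SD 0.529). Number of arrays limits the precision. The 4 group means were fitted with limma 3.58.1 in R 4.3.3 and eBayes, calling adjusted p-values (Benjamini-Hochberg, all tested probes) under 0.05. Each array is 1 rat. Correlations used deviations from group means, with 100000 shuffles within groups. Python 3.11.15, numpy 2.4.6, pandas 2.3.3, scipy 1.17.1 and matplotlib 3.10.9 did the rest. The fit was tested on simulated data.

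The 9 genes and all lists were chosen with earlier results of these data known. Members were described by the probe of highest mean Cy5 signal. From each list the 2 genes of lowest p in the time contrast and the 2 in the diet contrast could be named, and for each member the 3 genes of highest r. The names of 17997 probes came from RefSeq through their accession. Alternatives were other background correction, scaling, filters, variance prior, array weights, probe, the Cy5 channel alone, the methods' test (one-way ANOVA, then Tukey's HSD), fewer groups, slide or rat number as a block, and leaving out each array. Whether rat numbers pair the samples was checked by correlating deviations of same-numbered arrays over all probes (31 pairs, -0.263 to 0.286), so the numbers were not taken to pair rats.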

Additional observations from a re-analysis of the deposited data

Results flagged for a closer look

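Cd163 in replicate 4 of BD 14 had a log2 ratio of -2.135, the lowest of its 6 rats, with the next at -0.8018. The gap was 0.828 of the group's range, above Dixon's critical value of 0.625. It was the only one of 36 gene and group combinations looked at to stand out in this way, and chance flags about 1 in 20. On that array the mean of the 9 genes was -1.68, the lowest of BD 14.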

How the results depend on the processing

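Over 37 alternatives, 22 of them leaving out 1 array, 962 of 987 single-gene values kept their direction and side of the threshold. They cover CD 14 against CD 3, BD 3 against CD 3, time averaged over diets and the interaction for C1qc only. Many could hardly change: leaving out an array of a group not compared gives the same difference, and no member was called in the main fit. The count therefore does not measure how firm the results are. Slide as a block changed most: members with an unadjusted p under 0.05 became 0 in CD 14 against CD 3 and 0 for time averaged over diets. It reversed Marco (-1.67), Cd5l (-0.60), C1qa (-0.025) and C1qb (-0.10) in CD 14 against CD 3, Cd68 (-0.14), Cd163 (-0.27), Marco (-0.91), Cd5l (-0.51), C1qa (-0.42), C1qb (-0.46) and Csf1r (-0.015) for time, and Marco (-2.29), Cd5l (-0.94) and C1qb (-0.0077) in BD 3 against CD 3. Since slide and group are tied, the cause was not tested. Normexp with loess reversed Marco in CD 14 against CD 3 (-0.31) and BD 3 against CD 3 (-0.63), and the next probe reversed Csf1r in the same comparisons (-0.0067 and -0.23). For the counts that follow, the share of all probes in the same setting is not given here, and that of the main fit cannot stand in for it. In CD 14 against CD 3, 4 members had an unadjusted p under 0.05 with array weights, 3 with ANOVA and Tukey's test, 6 with normexp and loess and 8 with Cy5 alone. Leaving out 1 array gave 4 to 8 there, 3 to 8 for time, 0 to 2 members called in CD 14 against CD 3, 0 to 1 called among the 4 groups, and -0.21 to 0.82 for Marco in BD 3 against CD 3, where leaving out CD 3 replicate 2 (-0.034) or 3 or BD 3 replicate 1 (-0.035), 4 (-0.073) or 5 (-0.15) reversed it. With the replicate block, though rat numbers did not pair samples (5 of 22 arrays correlated best with their own number), the counts in CD 14 against CD 3 and for time stayed at 7 and no member was called. Without the 2 arrays with many non-uniform spots, chosen after seeing the data, the count in CD 14 against CD 3 was 7. Marco is limited by signal, being near background on 3 arrays.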
